A study of Mus musculus with 15 samples.

Results

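The mRNAs of 9 enzymes that write, maintain and remove DNA methylation were followed in mouse retinal pigment epithelium (RPE) with and without *Prom1*. They were chosen by gene symbol, and all 9 were found in the count table of cultured cells, which lists 20910 genes, and in that of tissue, which lists 25038. The 15 libraries were poly(A) RNA-seq of an immortalised mouse RPE line (mRPE) and of dissected RPE/choroid. The mRPE cells came from pooled RPE of C57BL/6J mice immortalised with the papillomavirus E6 and E7 genes. Both knockout lines were made in Cas9-expressing mRPE cells transfected with a guide RNA against *Prom1*. The groups were 4 WT mRPE libraries, 3 of the *Prom1*-KO clone KO22 and 2 of the *Prom1*-KO clone KO26, so each knockout is a single clone. The study set its KO26 libraries aside in its own comparison, since they remained outliers after batch correction. The paper proposes biological heterogeneity or technical anomalies for this. A KO26 line was still part of its qPCR and Western blots. The tissue groups were 3 WT and 3 *Prom1*-KO RPE/choroid libraries, the latter from Prom1fl/fl mice crossed with RPE65-Cre mice and given Tamoxifen, which deletes *Prom1* in the RPE and not in photoreceptors. The labels name the control tissue only as WT, and give no age for the mice.

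DNA methylation is the addition of a methyl group to cytosine, in mammals mostly where the cytosine is followed by guanine (CpG). Dnmt3a and Dnmt3b place new methyl groups, while Dnmt1 copies the pattern onto the daughter strand after replication and is brought there by Uhrf1, which binds hemimethylated CpG. Uhrf2 is the paralog of Uhrf1. Tet1, Tet2 and Tet3 oxidise methylcytosine, and Tdg cuts out the later oxidation products so that base excision repair can restore cytosine. In dividing cells *Dnmt1* and *Uhrf1* mRNA is known to be high in S phase, and in the mature eye the RPE is largely postmitotic.

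*Dnmt1*, *Uhrf1* and *Tet1* were the members whose mRNA differed most between the cultured groups, the first pair being higher and *Tet1* lower in KO22, and their promoter windows are shown because of that. Each window holds 250 bases before and 50 bases after a RefSeq transcription start and was placed on GRCm39 by its single exact match. E2F is the factor family that drives many S-phase genes. The windows were searched on both strands for 4 8-base versions of its site, TTTCCCGC, TTTCGCGC, TTTGCCGC and TTTGGCGC, and matches are in capitals. A match is a description of letters and does not show binding.

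Dnmt1, chr9:20863870-20864169, minus strand: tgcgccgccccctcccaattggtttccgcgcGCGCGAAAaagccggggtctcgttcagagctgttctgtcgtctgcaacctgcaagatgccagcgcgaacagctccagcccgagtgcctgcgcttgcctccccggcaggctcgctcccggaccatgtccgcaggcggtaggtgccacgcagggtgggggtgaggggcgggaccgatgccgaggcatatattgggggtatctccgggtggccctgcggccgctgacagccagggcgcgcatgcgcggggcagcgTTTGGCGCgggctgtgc
Uhrf1, chr17:56611063-56611362, plus strand: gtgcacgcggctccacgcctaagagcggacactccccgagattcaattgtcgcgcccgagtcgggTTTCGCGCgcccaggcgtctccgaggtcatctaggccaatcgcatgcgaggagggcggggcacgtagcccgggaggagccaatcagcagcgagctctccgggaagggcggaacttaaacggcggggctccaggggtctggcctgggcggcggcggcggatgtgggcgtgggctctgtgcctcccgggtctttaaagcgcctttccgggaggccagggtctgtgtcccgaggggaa
Tet1, chr10:62723054-62723353, minus strand: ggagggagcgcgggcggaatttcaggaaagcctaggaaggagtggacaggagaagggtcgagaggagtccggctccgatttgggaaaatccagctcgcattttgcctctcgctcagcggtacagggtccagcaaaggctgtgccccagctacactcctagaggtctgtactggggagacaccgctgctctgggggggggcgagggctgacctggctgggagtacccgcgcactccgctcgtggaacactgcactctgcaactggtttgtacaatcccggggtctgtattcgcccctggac

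The *Dnmt1* window held TTTCGCGC on the opposite strand 219 bases before the start and TTTGGCGC 34 bases after it. The *Uhrf1* window held TTTCGCGC 185 bases before its start. Each of these windows held 33 CpG. They are 1 of 3 listed for *Dnmt1* and 1 of 2 for *Uhrf1*, and were printed because they hold a match. The others held none and fewer CpG, 12 and 2 for *Dnmt1* and 12 for *Uhrf1*. The single window of *Tet1* held 17 CpG and none of the 4 versions. All 9 members matched by symbol, with 14 windows, since some genes have several starts, and 2 of these windows held a match. Over all 32851 windows listed, 2.26% held one.

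The mRPE count totals ran from 8076188 to 27537863 per library and those of RPE/choroid from 48154444 to 61766179. The first WT, KO22 and KO26 libraries were sequenced under one project number (batch 1) and the other 6 mRPE libraries under another (batch 2). WT replicate 1 stood further from the other WT libraries than these did from each other, and so did KO22 replicate 1 within its group. Mitochondrially encoded genes took 12.9% to 21.6% of the mRPE counts and 64.9% to 71.3% of the tissue counts, except 84.2% in KO tissue replicate 3. That replicate also stood far further from the other KO tissue libraries than these did from each other. Its TMM factor, which scales a library's total, was 0.488, beside 1.07 to 1.33 in the other tissue libraries. *Prom1* is not analysed here in mRPE. In tissue it was at 48.7, 49.6 and 53.3 CPM (counts relative to the library's TMM-scaled total) in WT and 49.9, 48.1 and 35.5 CPM in KO. The groups overlapped, so the tissue libraries are *Prom1*-KO by their labels, and the level in RPE cells alone was not tested. Only 5 of 17 RPE markers are in the mRPE table, so the identity of the cultured cells could not be checked on *Rpe65* or *Lrat*.

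Per base of exon, *Uhrf2* was the most abundant of the 9 mRNAs in WT mRPE. Its level was 18.9 ± 2.19 CPM per kb of exon (SD, n = 4), followed by *Tet2* at 10.4 ± 2.18, *Dnmt1* at 6.65 ± 0.701 and *Tet1* at 4.92 ± 0.582 CPM per kb. *Dnmt3a* at 3.70 ± 0.22, *Tet3* at 3.11 ± 0.277, *Tdg* at 2.75 ± 0.700 and *Uhrf1* at 2.60 ± 0.642 CPM per kb came next. *Dnmt3b* was lowest, at 0.770 ± 0.108 CPM per kb. Neighbours in this order overlapped over the 4 libraries for *Tet2* with *Dnmt1*, *Dnmt3a* with *Tet3*, *Tet3* with *Tdg*, and *Tdg* with *Uhrf1*, while the other neighbours were separate.

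**Figure D1:**
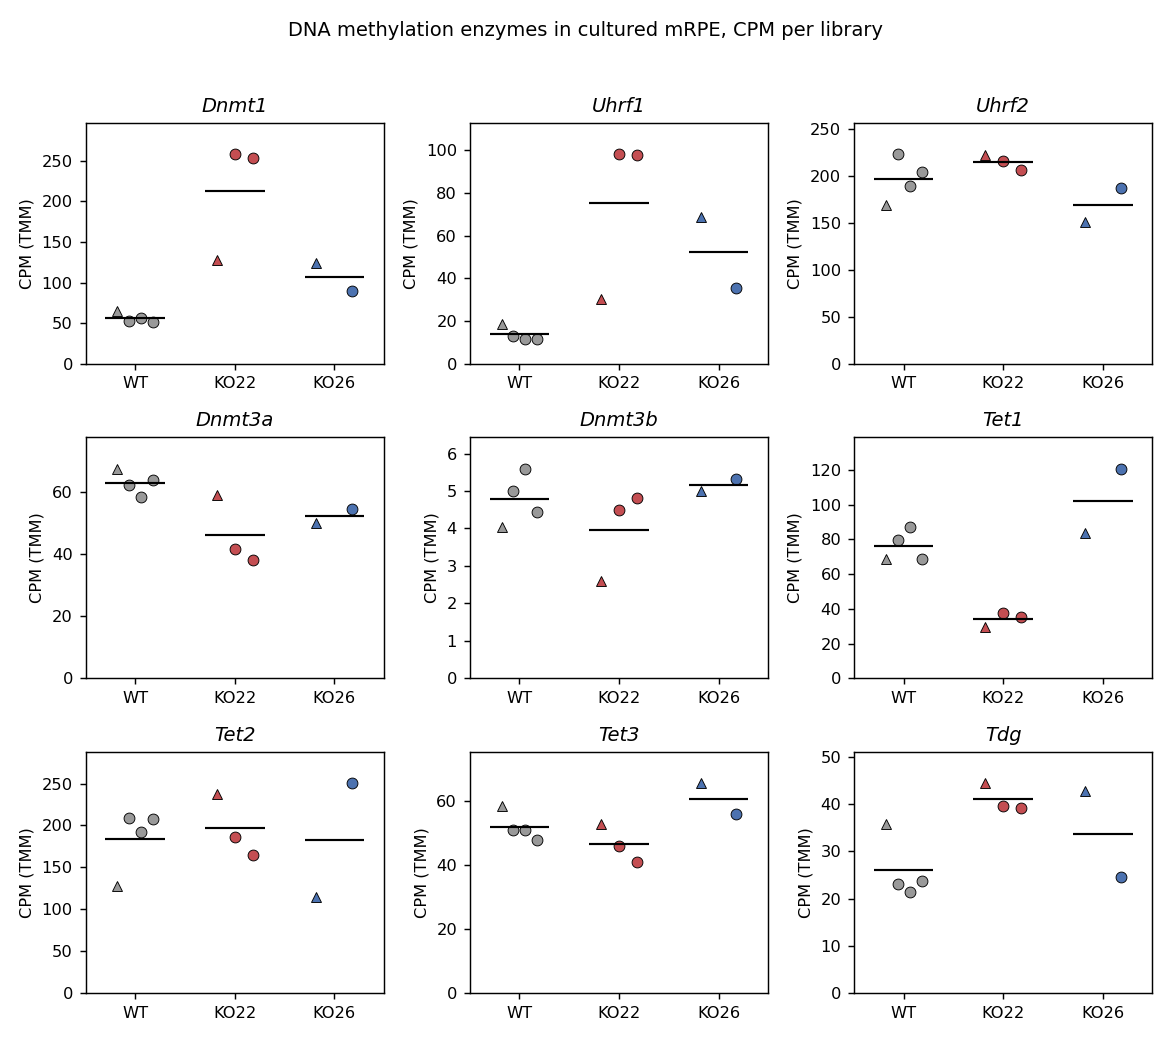
Level of each enzyme in the 9 mRPE libraries, in CPM after TMM scaling on linear axes from 0. Triangles are batch 1 libraries, circles batch 2 libraries and horizontal bars group means. *Dnmt1* and *Uhrf1* lie above WT in all 5 knockout libraries, and *Tet1* lies below WT in the 3 KO22 libraries but not in KO26.

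The first comparison asked how clone KO22 differed from WT mRPE. *Dnmt1*, *Uhrf1* and *Tdg* rose, *Tet1* and *Dnmt3a* fell, and *Dnmt3b*, *Uhrf2*, *Tet2* and *Tet3* did not pass the test, the quasi-likelihood test of edgeR with a batch term, adjusted over 20455 genes by Benjamini and Hochberg. That is 5 of 9 members at an adjusted p under 0.05, where 53% of all genes tested passed (26.9% higher and 26.1% lower), so the count of members is near the background. Of the 9, *Dnmt1* and *Uhrf1* were also past an absolute log2 fold change of 1.2, where 25.2% of all genes were.

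*Dnmt1*, the maintenance methyltransferase, was at 64.8 CPM in the batch 1 WT library and at 52.6, 56.8 and 51.8 CPM in the batch 2 WT libraries. In KO22 it was at 128 CPM in batch 1 and at 258 and 253 CPM in batch 2. All 3 KO22 libraries lay above all 4 WT libraries, and the batch 1 library of KO22 was the lowest of its group. The log2 fold change was 1.89 (SE 0.21, adjusted p = 7.87e-05, edgeR), a 3.70-fold higher level. Within batches the log2 ratio was 0.97 in batch 1 and 2.24 in batch 2.

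*Uhrf1*, the factor that brings Dnmt1 to hemimethylated CpG, was at 18.7 CPM in the batch 1 WT library and at 13.0, 11.5 and 11.6 CPM in the other WT libraries. In KO22 it was at 30.1 CPM in batch 1 and at 98.1 and 97.8 CPM in batch 2. The groups did not overlap, yet the batch 1 library of KO22 was far closer to WT than the batch 2 libraries. The log2 fold change was 2.38 (SE 0.37, adjusted p = 0.000531, edgeR). It was 3.01 without WT replicate 1 and 3.03 without KO22 replicate 1, and within batches the log2 ratio was 0.67 in batch 1 and 2.97 in batch 2.

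*Uhrf2* was at 169, 223, 190 and 204 CPM in WT and at 222, 216 and 206 CPM in KO22, and the groups overlapped. Its log2 fold change was 0.14 (95% interval −0.13 to 0.40, adjusted p = 0.347, edgeR). Per length, *Uhrf1* made up 12.2% ± 3.75 (SD, n = 4) of the combined *Uhrf1* and *Uhrf2* mRNA in WT and 38.9% ± 15.4 (SD, n = 3) in KO22.

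Of the enzymes that place new methyl groups, *Dnmt3a* was at 67.6, 62.4, 58.5 and 63.8 CPM in WT and at 59.0, 41.8 and 38.0 CPM in KO22. The batch 1 library of KO22 lay inside the WT range. *Dnmt3a* fell by 0.50 on the log2 scale (SE 0.12, adjusted p = 0.00691, edgeR). *Dnmt3b* was at 4.05 to 5.60 CPM in WT and at 2.59 to 4.81 CPM in KO22, with overlapping groups and a log2 fold change of −0.26 (95% interval −0.73 to 0.22, adjusted p = 0.332, edgeR).

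**Figure D2:**
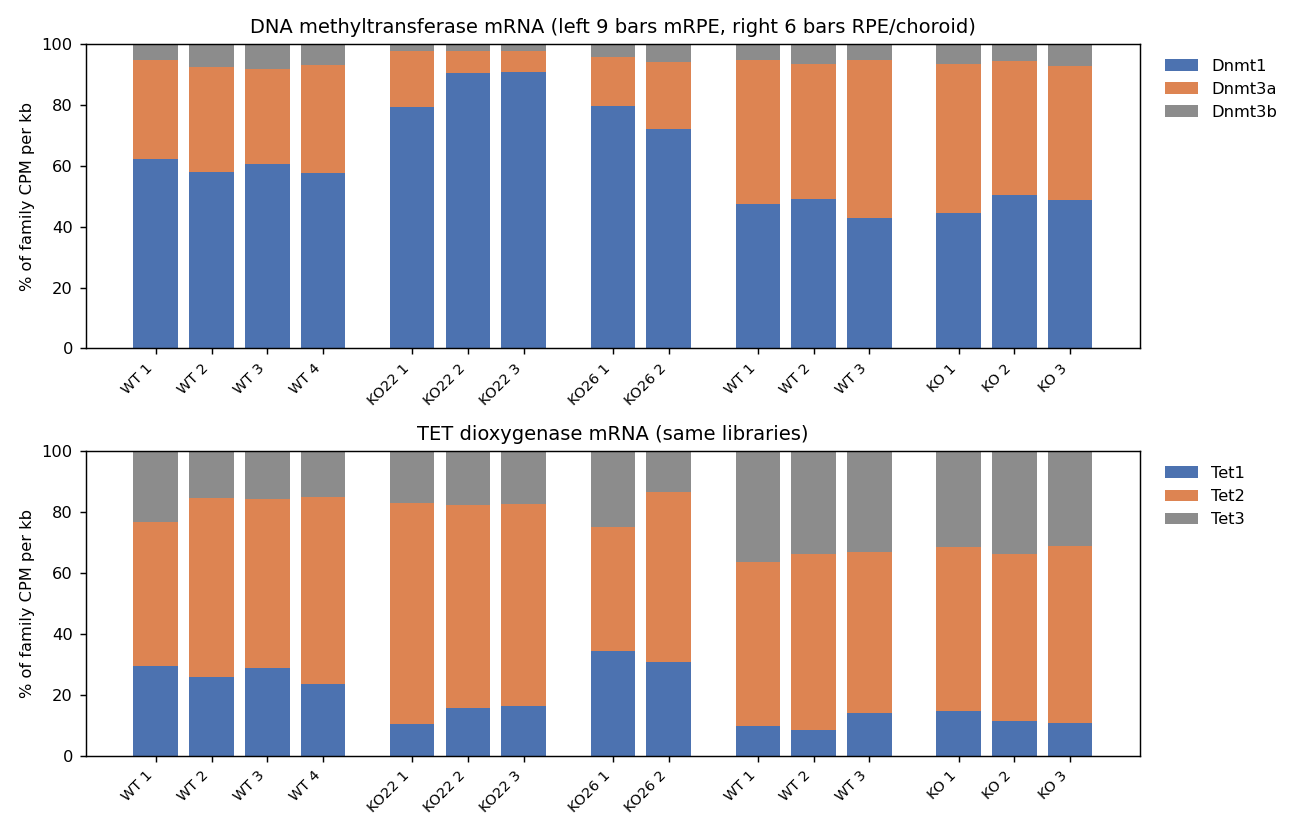
Share of each gene in the summed DNA methyltransferase mRNA (top) and TET mRNA (bottom) of each library, in percent of CPM per kb of exon. *Dnmt1* made up 57.7% to 62.3% of the methyltransferase mRNA in WT mRPE and 79.5% to 90.8% in KO22.

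The methyltransferase mRNA of KO22 was therefore made up differently. Per length, *Dnmt1* held 59.7% ± 2.16 (SD, n = 4) of the summed *Dnmt1*, *Dnmt3a* and *Dnmt3b* level in WT mRPE and 86.9% ± 6.48 (SD, n = 3) in KO22. *Dnmt3a* held 33.3% ± 1.93 in WT and 10.8% ± 6.51 in KO22. The shares of one library sum to a whole, so they carry no evidence beyond the levels above. They also depend on the exon length used, all annotated exons of a gene merged, at 8500 bases for *Dnmt1* and 17028 for *Dnmt3a*. Before division by length, WT mRPE had *Dnmt3a* at 58.5 to 67.6 CPM and *Dnmt1* at 51.8 to 64.8 CPM.

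Among the oxidising enzymes the change lay in *Tet1*. It was at 68.9, 79.4, 87.3 and 68.7 CPM in WT and at 29.7, 37.8 and 35.2 CPM in KO22. All 3 KO22 libraries were below all WT libraries, in both batches to a like degree, with log2 ratios of −1.198 in batch 1 and −1.09 in batch 2. *Tet1* fell by 1.13 on the log2 scale (SE 0.12, adjusted p = 5.19e-05, edgeR), a 2.20-fold lower level.

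*Tet2* was at 127, 209, 193 and 208 CPM in WT and at 238, 186 and 165 CPM in KO22. Its direction differed between batches, with log2 ratios of 0.90 in batch 1 and −0.21 in batch 2, and its fitted log2 fold change was 0.12 (95% interval −0.33 to 0.57, adjusted p = 0.640, edgeR). *Tet3* was at 47.7 to 58.6 CPM in WT and at 41.0 to 53.0 CPM in KO22, with a log2 fold change of −0.18 (95% interval −0.41 to 0.05, adjusted p = 0.170, edgeR). *Tet1* thus held 26.9% ± 2.84 (SD, n = 4) of the summed TET level per length in WT and 14.1% ± 3.20 (SD, n = 3) in KO22.

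*Tdg*, the glycosylase downstream of the TET enzymes, was at 35.8, 23.1, 21.3 and 23.7 CPM in WT and at 44.4, 39.7 and 39.3 CPM in KO22. The KO22 libraries were above all WT libraries, and the batch 1 WT library was the highest WT value. The log2 fold change was 0.65 (SE 0.13, adjusted p = 0.00201, edgeR). *Tdg* overlaps the coding genes *Glt8d2* and *Uqcc6* in the annotation, and *Tet3* overlaps *Bola3*. Whether the counting used strand is not given in the sources used here, so these 2 members are less certain.

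**Figure D3:**
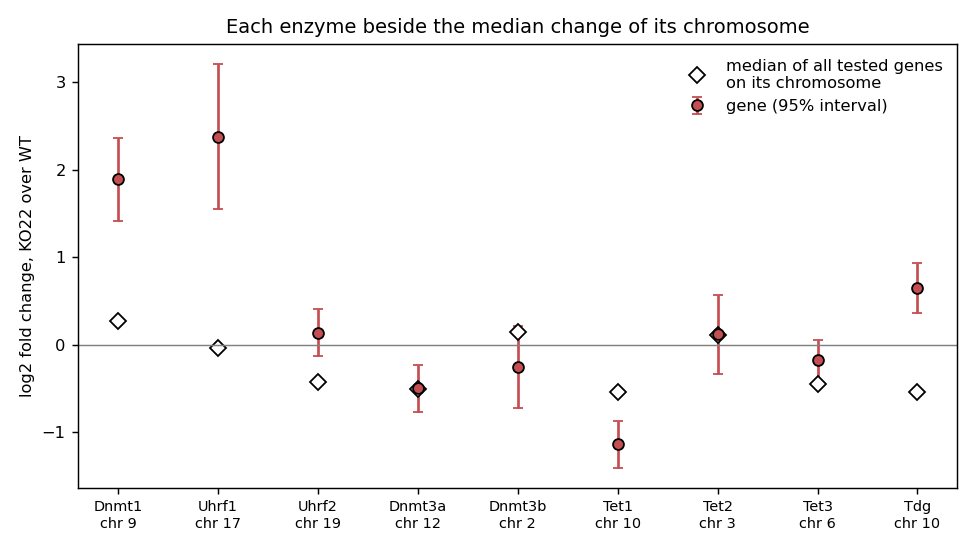
Fitted log2 fold change of KO22 over WT for each enzyme with its 95% interval (red) beside the median of all tested genes on its chromosome (open diamonds). *Dnmt3a* sits on its chromosome's median of −0.50, while *Dnmt1* and *Uhrf1* lie above theirs.

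Whole chromosomes differed in median between KO22 and WT. The median log2 fold change was −0.54 for the genes of chromosome 10, which holds *Tet1* and *Tdg*, −0.50 for chromosome 12 (*Dnmt3a*), −0.45 for chromosome 6 (*Tet3*), −0.42 for chromosome 19 (*Uhrf2*), 0.27 for chromosome 9 (*Dnmt1*) and −0.04 for chromosome 17 (*Uhrf1*). With the chromosome's median subtracted, *Dnmt3a* stood at 0.01 (adjusted p = 0.976, edgeR) and its call was lost. *Tet1* stood at −0.59, *Tdg* at 1.195, *Dnmt1* at 1.61 and *Uhrf1* at 2.41 relative to their chromosomes, and these 4 still passed. *Uhrf2* passed only on that scale, at 0.56 (adjusted p = 0.00344, edgeR). Whether chromosome number differs between the lines was not tested.

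Some markers of cell types also differed between the cultured groups. Of 8 markers of fibroblasts, pericytes and smooth muscle tested, 6 fell and none rose in KO22, where 26.1% of all genes fell and 26.9% rose. That list summed to 11916 to 15868 CPM in WT, 4364 to 6232 CPM in KO22 and 17264 to 19225 CPM in KO26. Of 6 endothelial markers tested, 2 fell, 1 rose and 3 did not pass in KO22, near the 53% of all genes that passed there. Their median log2 fold change was 0.11, beside −0.03 over all genes, with *Kdr* at −6.22. The endothelial list summed to 153 to 237 CPM in WT, 4.03 to 5.93 CPM in KO22 and 56.9 to 74.4 CPM in KO26. Of the 5 RPE markers tested 2 fell and 1 rose in KO22, near the 53% of all genes that passed there, with *Mertk* at −3.63 and *Mitf* at 1.41. The part of these differences in the member levels was not tested.

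The second comparison set clone KO26 against WT mRPE, using the same WT libraries as the first. *Uhrf1* was the single member that passed, 1 of 9 where 3.5% of the 20737 genes tested passed (2.36% higher and 1.13% lower). It was also past both limits, as were 1.92% of all genes. It was at 68.7 CPM in batch 1 and at 35.4 CPM in batch 2 of KO26, both above the highest WT library at 18.7 CPM. The log2 fold change was 1.91 (SE 0.44, adjusted p = 0.0427, edgeR). Leaving out any WT library, KO22 replicate 2 or KO26 replicate 1 ended the call, with adjusted p from 0.0566 to 0.392 and a log2 fold change of 1.23 without KO26 replicate 1. The call also ended without a batch term (adjusted p = 0.0539) and with chromosome medians subtracted (adjusted p = 0.0563, edgeR).

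*Dnmt1* in KO26 was at 124 CPM in batch 1 and 89.3 CPM in batch 2, also above every WT library, with a log2 fold change of 0.94 (95% interval 0.35 to 1.53, adjusted p = 0.0834, edgeR). *Tet1* was at 83.4 and 121 CPM in KO26, and its log2 fold change was 0.48 (95% interval 0.17 to 0.79, adjusted p = 0.0917, edgeR). *Dnmt3a* was at 50.2 and 54.6 CPM, below every WT library, with a log2 fold change of −0.32 (95% interval −0.68 to 0.04, adjusted p = 0.302, edgeR). These 3 members did not pass, though without KO22 replicate 1, which shares the fit, *Dnmt1* and *Tet1* did (adjusted p = 6.87e-05 and 0.0101, edgeR). *Tet2* was the least even of the 9 in KO26, at 114 CPM in batch 1 and 250 CPM in batch 2, and *Tdg* was at 42.8 and 24.6 CPM. The remaining members, *Dnmt3b*, *Uhrf2* and *Tet3*, had adjusted p from 0.498 to 0.628.

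**Figure D4:**
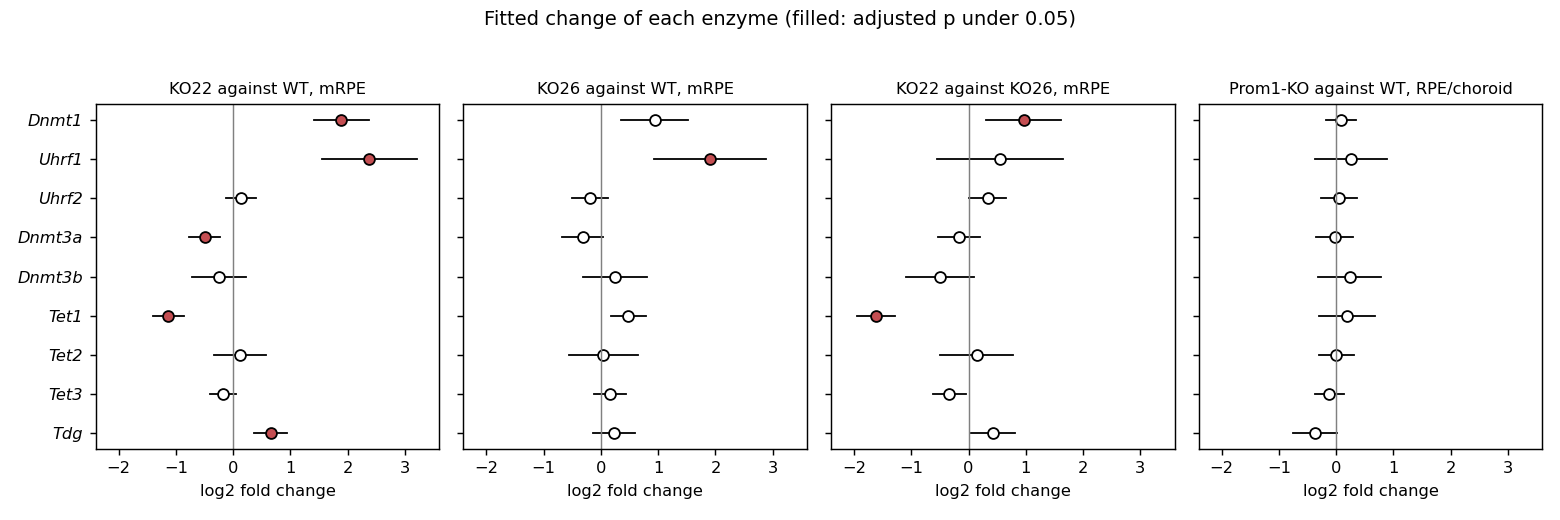
Fitted log2 fold change of each enzyme in the 4 comparisons with 95% intervals, filled where the adjusted p was under 0.05. *Tet1* is at −1.13 in KO22 and 0.48 in KO26 against WT, and no tissue interval is filled.

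The clones were then compared with each other in the fit over all 9 mRPE libraries. *Tet1* fell by 1.61 on the log2 scale in KO22 relative to KO26 (SE 0.15, adjusted p = 3.03e-05, edgeR), a 3.05-fold lower level. *Dnmt1* rose by 0.96 (adjusted p = 0.0281, edgeR). Thus 2 of 9 members passed, where 34.4% of all genes did (16.3% higher and 18.1% lower), and *Tet1* was past both limits, as were 18.3% of all genes. *Uhrf1* differed by 0.55 between the clones (95% interval −0.56 to 1.65, adjusted p = 0.431, edgeR). The *Tet1* call held without each library in turn, while that of *Dnmt1* was lost without WT replicate 3, without KO22 replicate 2 or 3 or without KO26 replicate 2, where it stood at 0.56 (adjusted p = 0.293, edgeR). It was also lost with chromosome medians subtracted, at 0.63 (adjusted p = 0.138, edgeR). The median of chromosome 10 was −0.54 in this contrast. With it subtracted *Tet1* stood at −1.07, where it still passed but was no longer past both limits. Without KO22 replicate 1, 7 members passed and *Uhrf1* differed by 1.37.

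S-phase and proliferation mRNAs moved with *Dnmt1* and *Uhrf1*. In KO22, 24 of 25 S-phase genes rose and none fell, with a median log2 fold change of 1.98, where 26.9% of all genes rose, 26.1% fell and the median was −0.03. They included the replication licensing and helicase genes *Cdc45* at 3.37 and *Mcm5* at 3.18 on the log2 scale, while *E2f1* at 0.60 did not pass. In KO26, 10 of 25 rose, where 2.36% of all genes did, with a median of 1.18, but this count was 24 without KO22 replicate 1, 14 without KO26 replicate 2, 5 to 7 without WT replicate 1 or KO22 replicate 2 or 3, 1 without WT replicate 2, 3 or 4, and 0 without KO26 replicate 1. The summed level of the list was 539 to 666 CPM in WT, 1326 CPM in KO22 of batch 1 and 2516 and 2630 CPM in KO22 of batch 2, and 1399 and 949 CPM in KO26. The order of the libraries is close to that of *Dnmt1*, and the part of cell cycling in the levels of *Dnmt1* and *Uhrf1* was not tested. All 5 proliferation markers rose in both clones, and in KO26 leaving out a library gave 0 to 5.

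The genes whose log2 level was most like that of *Dnmt1* over the 9 mRPE libraries, among 16371 compared, were *Hat1*, *Ssrp1* and *Cenpq* (Pearson r = 0.998, 0.997 and 0.997). For *Uhrf1* they were *Ezh2*, *Ruvbl2* and *Arhgef39* (r = 0.995, 0.990 and 0.990). For *Tet1* they were *Zfp260*, *Robo1* and *Acacb* (r = 0.999, 0.990 and 0.989). These coefficients describe libraries that fall into 3 groups and 2 batches.

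The partners of the enzymes were read from a list of 19 genes, of which 18 were tested in mRPE. In KO22, 10 rose, 3 fell and 5 did not pass, where 26.9% of all genes rose and 26.1% fell, with a median log2 fold change of 0.48 beside −0.03 over all genes. *Cdca7* (2.56) and *Hells* (1.96), whose proteins form a nucleosome remodeller needed for DNA methylation, rose, as did *Pcna* (2.22), the replication clamp that is also on the S-phase list. *Zfp57*, a zinc finger protein that guards imprinted methylation, fell by 1.42 and *Cxxc5* fell by 1.42 on the log2 scale. In KO26 none of the 18 passed at an adjusted p under 0.05 (edgeR), where only 3.5% of all genes did. An unadjusted p under 0.05 was found for 6 of them. DESeq2 called 3 of them higher, and edgeR called 6 without KO22 replicate 1. Without KO22 replicate 3, 6 rather than 10 rose in KO22.

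*Dnmt3l*, the cofactor of Dnmt3a and Dnmt3b that is best known from germ cells, was counted 36, 26 and 19 times in the KO22 libraries. In WT it was counted 0, 0, 1 and 0 times and in KO26 0 and 0 times. The depth-scaled ratio of KO22 to WT was 114 (95% exact binomial interval 20.0 to 4577, counting error only). KO22 was at least 18-fold higher than KO26, taking a floor of 3 counts over the KO26 group. *Dnmt3l* is on chromosome 10 like *Tet1*, and in KO22 its level was still only 1.25 to 3.11 CPM.

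Genes that feed the reactions were read the same way. Of 17 genes of the folate and methionine cycles tested, which supply the methyl donor S-adenosylmethionine, 10 rose and 3 fell in KO22, where 26.9% of all genes rose and 26.1% fell. In KO26 4 rose and none fell, where 2.36% and 1.13% of all genes did. Among those that rose in KO22 were *Mthfd2* (2.28), *Tyms* (1.96), which also serves the synthesis of DNA building blocks, and *Shmt1* (1.87). In KO26 *Mthfd2* (2.04), *Shmt2* (1.46) and *Mthfd1l* (1.32) rose past both limits, and the count of 4 was 1 to 6 with a library left out, lowest without KO26 replicate 1. Of 13 genes that set 2-oxoglutarate or ascorbate, which TET enzymes need, 5 rose and 3 fell in KO22, near the 53% of all genes that passed there, and 8 rose without WT or KO22 replicate 1. *D2hgdh* fell by 1.80 and the ascorbate transporter gene *Slc23a1* fell by 1.28, while *Sdhb* rose by 1.40. In KO26 none of these 13 passed (edgeR), where only 3.5% of all genes did, with 4 at an unadjusted p under 0.05.

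Of 12 base excision repair and GADD45 genes tested, 5 rose and 2 fell in KO22, near the 53% of all genes that passed there. In KO26 1 rose and none fell, where 2.36% and 1.13% of all genes did. Past both limits in KO22 were the glycosylase gene *Neil3* (1.76) and the endonuclease gene *Apex1* (1.56). With a library left out, 1 to 3 fell in KO22 and 0 to 5 rose in KO26. Of 10 genes for methyl-CpG binding proteins, 4 rose and 3 fell in KO22, where 26.9% of all genes rose and 26.1% fell, and only *Zbtb4* at −1.55 was past both limits. Among germline genes that promoter methylation keeps silent in somatic cells, 6 of 18 were tested. The rest were not in the mRPE table. In KO22 none rose, and *Slc25a31* (−2.24), *Sycp2* (−2.19), *Sycp3* (−1.75) and *Brdt* (−1.45) fell. Levels were low, the 6 together summing to 16.8 to 27.8 CPM in WT and 7.37 to 9.69 CPM in KO22. In KO26 none of the 6 passed (edgeR), where 3.5% of all genes did. DNA methylation itself was not measured.

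In tissue, none of the 9 members passed in *Prom1*-KO against WT RPE/choroid by edgeR or by DESeq2. None of the 9 had an unadjusted p under 0.05 (edgeR). By edgeR 0.193% of 24926 genes passed, all of them lower in KO. Of the same 24926 genes DESeq2 called 145 higher and 303 lower in KO. A p that misses the limit does not show equal levels, so the intervals are given. In simulated data the tissue fit recovered only 8 of 100 genes changed by 1 on the log2 scale. In bulk tissue, fewer cells of a type and less RNA per cell cannot be told apart.

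*Dnmt1* was at 15.2, 17.0 and 15.5 CPM in WT tissue and at 16.2, 17.2 and 17.2 CPM in KO tissue. The groups overlapped, and the log2 fold change was 0.09 (95% interval −0.18 to 0.35, adjusted p = 0.893, edgeR). *Uhrf1* was near 1 CPM throughout, at 0.964 to 1.02 CPM in WT and 0.8293 to 1.42 CPM in KO, from 25 to 87 counts per library, and its log2 interval ran from −0.37 to 0.89. *Tet1* was at 8.93 to 14.1 CPM in WT and 11.3 to 14.4 CPM in KO, with a log2 interval of −0.30 to 0.68.

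*Tdg* had the lowest p of the 9. It was at 4.12, 4.75 and 5.64 CPM in WT and at 3.73, 3.82 and 3.65 CPM in KO, all below WT, with a log2 fold change of −0.37 (95% interval −0.76 to 0.01, adjusted p = 0.614, edgeR). *Tet3* was also lower in each KO library, at 33.4 to 36.5 CPM against 36.5 to 39.2 CPM, a log2 fold change of −0.12 (95% interval −0.38 to 0.14, adjusted p = 0.844, edgeR). *Dnmt3a*, *Dnmt3b*, *Uhrf2* and *Tet2* overlapped between the groups. With 3 libraries per group a gene can be separate by chance, and the share of all genes that were was not counted. The separation of *Tdg* and *Tet3* is therefore a description only.

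**Figure D5:**
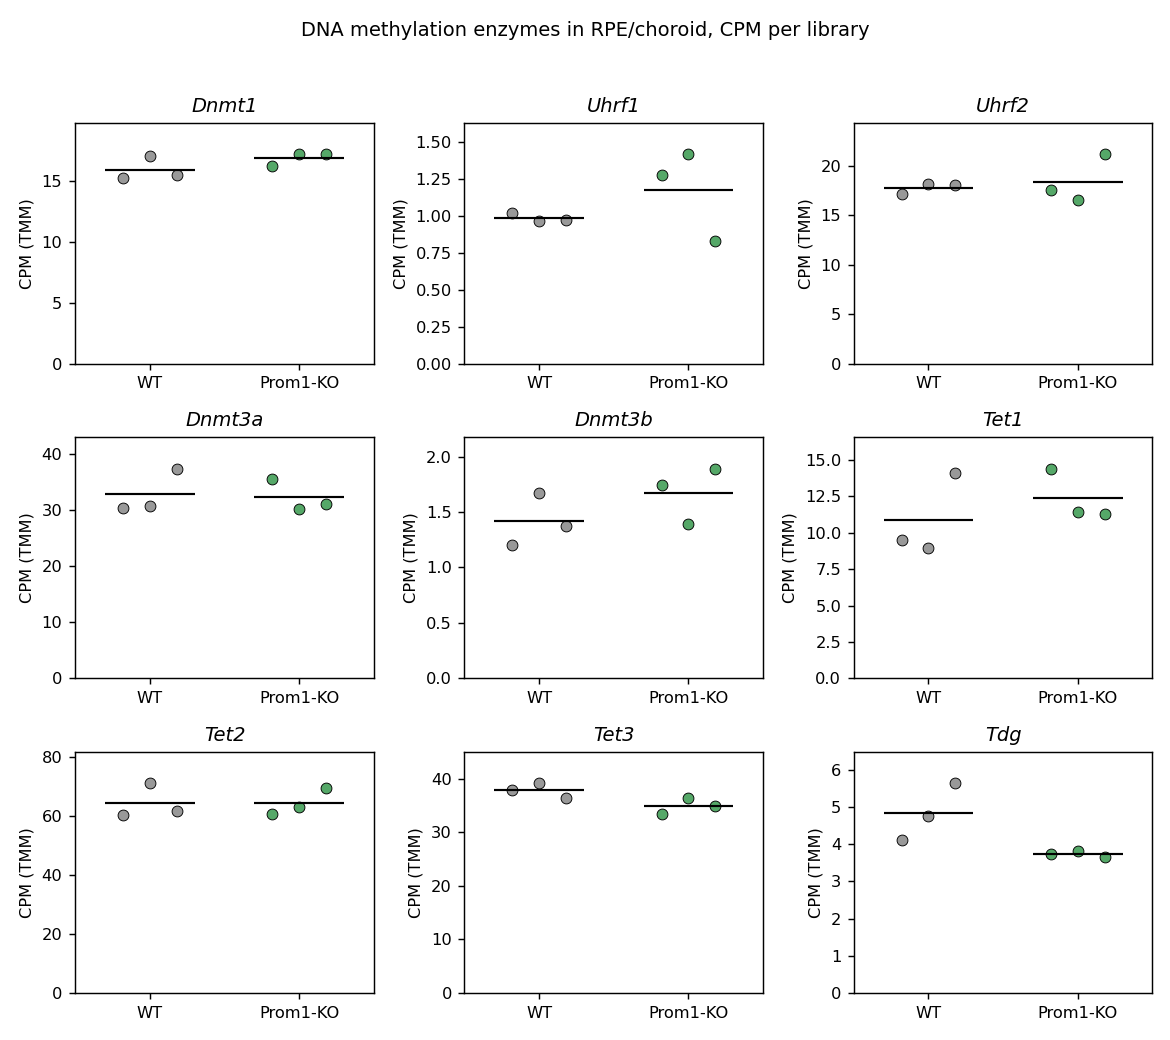
Level of each enzyme in the 6 RPE/choroid libraries, in CPM after TMM scaling on linear axes from 0, with bars at group means. *Tdg* and *Tet3* are lower in each *Prom1*-KO library but did not pass (adjusted p = 0.614 and 0.844, edgeR), and the other enzymes overlap. With 3 libraries per group such separation can arise by chance, and the share of all genes whose groups do not overlap was not counted.

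The same tissue libraries differed in RPE mRNA. Of 17 RPE markers 5 fell and none rose (edgeR), a count that was 2 without any one of the WT libraries or KO replicate 2, 3 without KO replicate 3, and 9 with DESeq2. Among the 5 was *Rpe65*, at 257 CPM on average in WT and 3.86 CPM in KO. The list summed to 2722 to 3699 CPM in WT and 1320 to 1503 CPM in KO. The 15 photoreceptor markers summed to 45.8 to 1234 CPM in WT and 23.6 to 597 CPM in KO, and the 9 endothelial markers to 107 to 217 CPM and 71.4 to 95.5 CPM. The part of these cell types in the member levels was not tested. None of the S-phase, partner, methyl donor, repair, reader or cosubstrate lists held a gene that passed by edgeR, and DESeq2 called 1 partner gene lower and no S-phase gene. Of the 25 S-phase genes 3 had an unadjusted p under 0.05, and the list summed to 90.6 to 93.1 CPM in WT and 105 to 110 CPM in KO.

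The order of the members in WT tissue was unlike that in WT mRPE. Per length *Tet2* led at 3.63 ± 0.331 CPM per kb (SD, n = 3), then *Tet3* at 2.27 ± 0.0804, *Dnmt3a* at 1.93 ± 0.231, *Dnmt1* at 1.87 ± 0.113 and *Uhrf2* at 1.71 ± 0.056 CPM per kb. *Tet1* at 0.702 ± 0.184, *Tdg* at 0.513 ± 0.0808, *Dnmt3b* at 0.229 ± 0.0383 and *Uhrf1* at 0.187 ± 0.00598 CPM per kb were lowest. *Tet3* with *Dnmt3a*, *Dnmt3a* with *Dnmt1*, and *Tet1* with *Tdg* overlapped over the 3 libraries. *Dnmt1* held 46.5% ± 3.19 (SD, n = 3) of methyltransferase mRNA per length in WT tissue and *Tet1* held 10.7% ± 2.87 of TET mRNA. Before division by length, *Dnmt3a* at 30.4 to 37.3 CPM was above *Dnmt1* at 15.2 to 17.0 CPM in WT tissue. The tables of cells and tissue were sequenced and scaled apart, so these orders stand side by side without a test.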

How the data were processed

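The authors deposited raw counts per gene. Per the labels, Stranded mRNA libraries (NEB) were sequenced on an Illumina NovaSeq6000, and the submitters' processing notes name Trim Galore 0.6.7, STAR, DESeq2 1.42.0 and mm39. The normalized tables were not used.

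Counts were analysed in R 4.3.3 with edgeR 4.0.16 (TMM, quasi-likelihood F test, Benjamini-Hochberg adjustment), for genes that reached 5 counts in 3 or more libraries. The comparison of KO22 with WT used 7 mRPE libraries. Both comparisons of KO26 used all 9. These fits had batch (the library name's project number) as a term, and that of RPE/choroid had no covariate. A gene passed at an adjusted p under 0.05. "Both limits" adds an absolute log2 fold change over 1.2. Exon lengths (all annotated exons of a gene merged) and positions are from GENCODE on GRCm39, and promoter windows from RefSeq. Patterns over libraries were compared among genes with a mean of at least 1 CPM.

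Every member was named. In the other lists, up to 4 genes per comparison with the largest change past both limits were named; *E2f1*, *Zfp57* and *Cxxc5* beyond that were chosen after their values were seen. One gene that the rule names is not reported here. The members and lists were chosen with earlier results of these data known. The fits were first tested on simulated data, with 100 genes changed by 1 and 100 by 2 on the log2 scale. At 1 they recovered 56 (KO22 against WT), 42 (KO26 against WT), 34 (KO22 against KO26) and 8 (tissue). At 2 they recovered 93, 88, 76 and 84 in the same order. Alternatives were DESeq2's size factors and Wald test, no filter, filterByExpr, no batch term, batch 2 alone, chromosome medians subtracted, all 9 libraries in one fit, no mitochondrially encoded genes, and each library left out. Nothing in the labels says that replicates were separate cultures or animals, so p-values measure the spread between these libraries.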

Additional observations from a re-analysis of the deposited data

Results flagged for a closer look

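In WT mRPE the highest library for *Tdg*, at 35.8 CPM, stood apart from the other 3, at 21.3 to 23.7 CPM (Dixon ratio 0.836). It is the batch 1 library. Chance flags about 1 group in 20, and 9 members were looked at in the one group of 4 libraries.

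The clones differed from each other in the tested contrast of KO22 with KO26 for *Tet1*, at a log2 fold change of −1.61, and for *Dnmt1*, at 0.96. The call for *Dnmt1* was lost without any one of 4 libraries and with chromosome medians subtracted (adjusted p = 0.138, edgeR). On that scale *Tet1* still passed, at −1.07. *Tet1* was lower than WT in each KO22 library and was not lower in KO26.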

How the results depend on the processing

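In KO22 against WT, 5 members passed under every alternative, with *Uhrf2* in place of *Dnmt3a* once chromosome medians were subtracted, and 2 to 3 were past both limits. The members that passed there kept their direction, except *Dnmt3a* at 0.00535 with chromosome medians subtracted. In KO26 against WT, 2 members passed with DESeq2's Wald test, 3 in batch 2 alone, and 0 (also 0 past both limits) without a batch term or with chromosome medians subtracted. Leaving out a library gave 0 to 3, with 0 to 1 past both limits. In KO22 against KO26, batch 2 alone gave 7 members and 3 past both limits, subtracting chromosome medians gave 0 past both limits, and leaving out a library gave 1 to 7 and 1 to 3. In batch 2 alone KO26 has a single library, assumed to vary like the other groups. The cause of these shifts was not tested. In tissue 0 members passed under all alternatives.

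Signs turned mostly for members that had not passed. For *Tet2* the log2 fold change of KO22 over WT was −0.20 in batch 2 alone and −0.22 to 0.26 with a library left out. That of KO26 over WT was −0.0146 without a batch term and −0.60 to 0.43 with a library left out. That of KO22 over KO26 was −0.53 in batch 2 alone, −0.17 with chromosome medians subtracted and −0.37 to 0.72 with a library left out. In tissue *Tet2* was at −0.00174 with DESeq2's size factors, −0.00203 with its Wald test, −0.0142 without mitochondrially encoded genes and −0.0717 to 0.0771 with a library left out. With chromosome medians subtracted *Tet3* was at 0.27 (KO22 over WT), −0.0022 (KO26 over WT) and 0.19 (KO22 over KO26), and *Dnmt3a* at 0.0465 (KO22 over KO26). With a library left out, KO22 over KO26 ran from −0.37 to 0.0875 for *Dnmt3a* and from −0.14 to 1.37 for *Uhrf1*, and tissue from −0.11 to 0.0822 for *Dnmt3a* and from −0.0776 to 0.12 for *Uhrf2*. Of 1508 recomputed list counts, 1310 stayed within 1.5 times. No paired analysis was possible because the labels give no replicate numbers shared between groups.

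Each knockout line is 1 clone and KO26 has 2 libraries, so clone and genotype cannot be told apart. Batch 1 holds 1 library per group, so its values carry no error of their own. Low counts limit *Uhrf1*, *Dnmt3b* and *Tdg* in tissue.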
